A study of Mus musculus with 12 samples.

Results

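Elastic fibres are built from an elastin core and a microfibril scaffold and are made insoluble by enzymes that crosslink elastin. Transcripts of 10 genes of this system, of 31053 genes in the feature table, were followed in cells of a mouse tracheal allograft and of native trachea. The 10 genes were taken by symbol: elastin (Eln), fibrillin 1 (Fbn1), the microfibril-associated genes Mfap4 and Mfap5, the fibulins Fbln1, Fbln2 and Fbln5, and the lysyl oxidases Lox, Loxl1 and Loxl2. All 10 were in the table and had UMIs in both trachea libraries. The study profiled single cells with 10x Chromium 3' chemistry (version 3) in 12 mouse samples, of which 4 came from a tracheal allograft, 4 from spleen and 4 from native trachea. Trachea cells of either source are labelled mesenchymal progenitors, and spleen cells splenocytes. The labels give no strain, genotype, age, treatment or time after grafting. Each source was deposited as 1 pooled matrix whose cells could not be assigned to the 4 samples. Every comparison below is therefore between 2 libraries, with no test and no spread between animals, and every interval covers counting error only.

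In the airway wall, elastic fibres give recoil. Tropoelastin, the soluble product of Eln, is secreted and assembles on microfibrils whose backbone is fibrillin 1. Mfap4 and Mfap5 proteins bind that scaffold, fibulin 5 links tropoelastin to cells and to Loxl1, and fibulins 1 and 2 are found in or around elastic fibres. Lysyl oxidases oxidise lysines of elastin and of collagen, so that the chains crosslink, and Loxl2 acts also on basement membrane collagen. Fibroblasts and smooth muscle cells make most of these proteins in the adult, and chondrocytes make some of them in cartilage.

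The filter kept 3865 allograft, 4116 native and 4559 spleen cells, with 25520145, 30346743 and 27779944 UMIs (unique molecular identifiers, each marking 1 captured transcript). The cells were clustered with the 10 genes and other elastic fibre genes left out. Most cells of both trachea libraries were leukocytes. Cells of mesenchymal classes made up 98 of the allograft cells (2.54%, exact 95% interval 2.06 to 3.08) and 941 of the native cells (22.9%, 21.6 to 24.2). In the allograft library 31 of them were in the fibroblast-like cluster, which had all 12 markers of its list, and 67 in the chondrocyte-like cluster, which had 13 of its list. The native library gave 933 and 8 such cells, so chondrocyte-like cells were not compared between the libraries. Median depths of the fibroblast-like cells were 12325 UMIs per cell in the allograft and 11152 in the native library. How cells were isolated is not in the labels, and isolation can set these shares. The doublet caller marked 0.651% and 0.908% of the 2 trachea libraries' barcodes. A nominal rate of 0.8% per 1000 barcodes gives 3.69% and 3.70%. If that rate holds for these libraries, most doublets were left in. The trachea libraries shared 3 kept barcodes, and 2 mesenchymal cells carry one of them.

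Over all kept cells, every one of the 10 genes was 2-fold or more lower in the allograft library. Levels are in CPM, the gene's share of all UMIs summed over the cells of a set. Among all 16465 genes with 10 or more UMIs, 19.5% were lower by 2-fold or more. The median log2 ratio, allograft over native, was -3.98 for the 10 genes and 0.01 for all genes. Mfap4 differed most, at 4.82 against 400.4 CPM (82.7-fold lower, 69.6 to 100.04). Eln followed with 10.4 against 620.1 CPM (59.4-fold lower, 52.7 to 67.4), and Fbln1 with 12.6 against 572 CPM (45.4-fold, 40.7 to 50.96). The smallest difference was that of Lox, with 20.6 against 51.2 CPM (2.49-fold lower, 2.25 to 2.75). Ratios of the remaining 6 genes lay between 5.61-fold (Fbn1) and 19.9-fold (Fbln5) lower. In such totals, fewer cells of a class and fewer transcripts per cell cannot be told apart, and the share of mesenchymal cells also differed.

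The cells that held these transcripts differed between the libraries. In the native library, fibroblast-like cells were 22.7% of the cells and held between 91.0% (Loxl2) and 99.03% (Fbln1) of each gene's UMIs. In the allograft library they were 0.802% of the cells and held 92.9% of Mfap5, 92.8% of Fbln1 and 91.9% of Fbln2 UMIs, but 59.02% of Eln and 35.8% of Lox UMIs. Allograft chondrocyte-like cells held 59.8% of Lox, 33.8% of Eln, 28.6% of Fbln5 and 26.96% of Fbn1 UMIs. Of the Mfap4 UMIs of the allograft library, 11.4% (14 of 123) were in macrophage-like cells, which were 49.9% of its cells. That is 0.961 CPM in 1927 cells. The 376 allograft T cells, used here as a background of free RNA, held 0 Mfap4 UMIs, with an upper limit of 2.28 CPM. That limit lies above the macrophage value, so the macrophage UMIs cannot be told apart from free RNA.

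**Figure D1:**
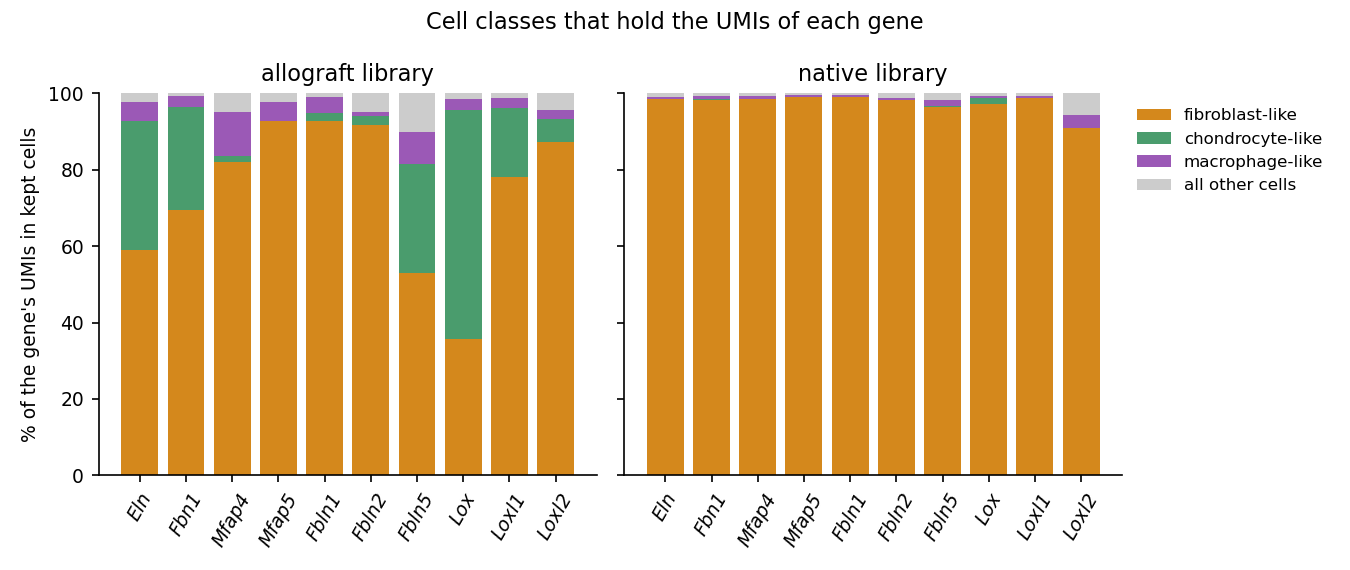
Share of each gene's UMIs (y axis, % of the UMIs in kept cells) held by fibroblast-like, chondrocyte-like, macrophage-like and all other cells in the allograft (left) and native (right) library. Fibroblast-like cells hold over 90% of every gene in the native library, while chondrocyte-like cells hold 59.8% of the Lox and 33.8% of the Eln UMIs of the allograft library.

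Among mesenchymal cells of both classes, 7 of the 10 genes were 2-fold or more lower in the allograft library, 1 was higher and 2 lay between. Of 13161 genes, 12.7% were lower and 18.2% higher by that measure. Eln stood at 174 against 1811 CPM (10.4-fold lower, 9.18 to 11.8) and Mfap4 at 72.6 against 1170.2 CPM (16.05-fold lower, 13.3 to 19.8). Lox was the gene on the other side, at 354 against 149.9 CPM (2.36-fold higher, 2.13 to 2.61). Fbn1 (434 against 411 CPM) and Loxl2 (108 against 132 CPM) differed by less than 2-fold. These cells were 67 of 98 chondrocyte-like in the allograft and 8 of 941 in the native library, so this set mixes makeup with level. The fibroblast-like cluster alone was therefore compared next, a comparison added after the clusters were seen.

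Within fibroblast-like cells the 10 genes split. Eln, Mfap4 and Fbln1 were 2-fold or more lower in the 31 allograft cells than in the 933 native cells, Fbn1, Lox and Loxl2 were higher, and Mfap5, Fbln2, Fbln5 and Loxl1 lay between. Of 12794 genes, 11.8% were lower and 19.4% higher, so 3 of 10 in each direction stands beside those shares. The median log2 ratio was 0.26 for the 10 genes and 0.14 for all genes. Median-of-ratios scaling moved every log2 ratio down by 0.17 and left the split as it was. The fibroblast-like cells of the 2 libraries mostly fell in different sub-clusters. Of the 31 allograft cells 30 lay in sub-cluster 6, with 2 native cells, and most native cells in sub-clusters 0 to 3. The libraries were clustered together without batch correction, so a difference in cell kind, cell state or library cannot be told apart. Collagen gene Col1a1, a fibroblast marker, stood at 17566 against 3414 CPM. Leukocyte markers differed as well. Ptprc, the CD45 gene, had 15 UMIs in 6 of 31 allograft cells (36.0 CPM, 20.1 to 59.3) and 87 in 53 of 933 native cells (8.55 CPM, 6.85 to 10.5). The 8 monocyte markers summed to 780 against 61.6 CPM, with Ly6c2, Chil3 and Cd300e at 0 in the allograft cells. The 10 T cell markers summed to 415 against 101 CPM, with Cd3d, Cd8a, Trbc2 and Lef1 at 0 there. The 10 macrophage markers summed to 878 against 1099 CPM, with none at 0. Of these lists, 2 monocyte, 1 T cell and 4 macrophage markers were found in 20% or more of the allograft cells. Few genes of the monocyte and T cell lists were thus common in these cells, and the sums are no measure of leukocyte content. Among cells without a Ptprc UMI the 10 genes were again 3 lower, 3 higher and 4 between.

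**Figure D2:**
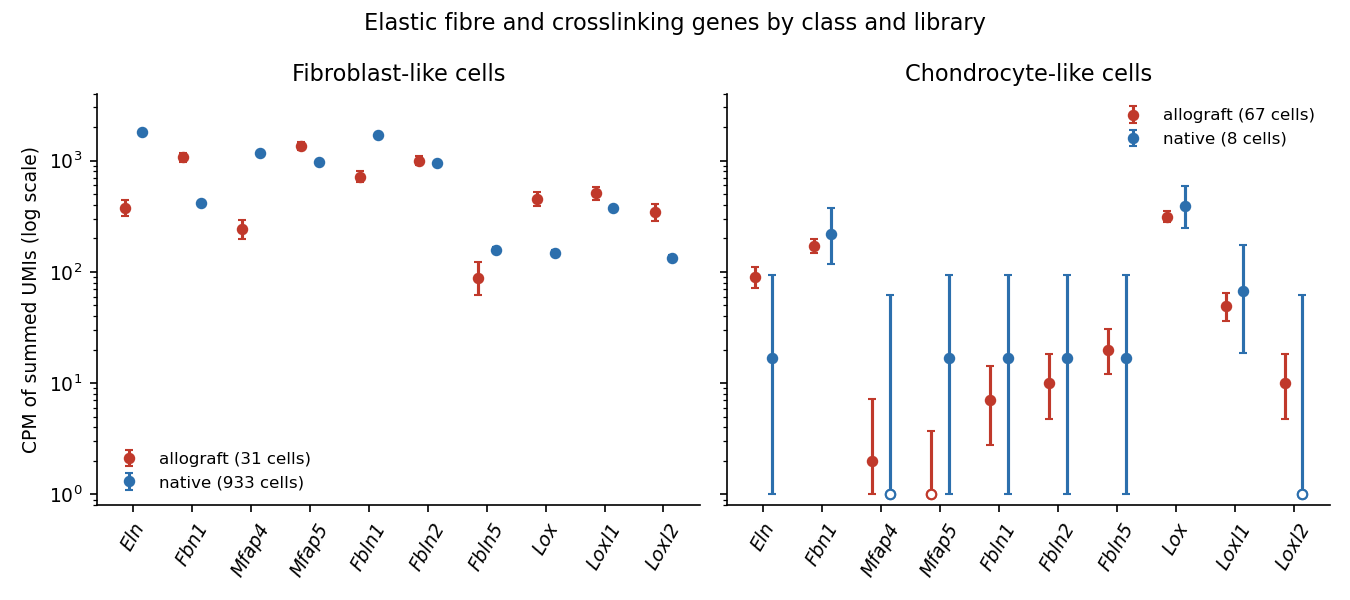
Levels of the 10 genes (CPM of summed UMIs, log axis) in fibroblast-like (left) and chondrocyte-like (right) cells of the allograft and native library. Bars are exact 95% Poisson intervals, values and limits under 1 CPM are drawn at 1, and hollow points mark 0 UMIs; in fibroblast-like cells Eln is 377 CPM in the allograft and 1822 CPM in the native library, and Fbn1 1065 and 412 CPM.

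The fibre core genes Eln, Fbn1, Mfap4 and Mfap5 went in both directions. Eln (ENSMUSG00000029675, GRCm38 chromosome 5, 134702593 to 134747323, minus strand) had 157 UMIs in the 31 allograft cells and 18534 in the 933 native cells. Its level was 377 CPM (320.004 to 440.3) against 1822 (1796 to 1848), or 4.82-fold lower (4.13 to 5.70). Eln was the highest of the 10 genes in native and the 7th in allograft fibroblast-like cells. It was detected in 74.2% of allograft and 94.7% of native cells, and in 36.7% and 76.6% after each cell was thinned to 1500 UMIs.

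Mfap4 (ENSMUSG00000042436, chromosome 11, 61485431 to 61488900, plus strand) encodes a glycoprotein that binds tropoelastin and fibrillin. It stood at 242 against 1177 CPM, 4.83-fold lower (3.99 to 5.97) and near the Eln ratio. Mfap5 (ENSMUSG00000030116, chromosome 6, 122505845 to 122529290, plus strand), encodes a microfibril protein of another family in spite of its name. Its level was 1353 against 966 CPM (1.40-fold higher, 1.28 to 1.52) and was the highest of the 10 in allograft fibroblast-like cells.

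Fbn1 (ENSMUSG00000027204, chromosome 2, 125300594 to 125507993, minus strand) stood at 1065 CPM (968 to 1169) in allograft and 412 (399 to 424) in native fibroblast-like cells, 2.59-fold higher (2.34 to 2.85). Thus the scaffold gene was above, and elastin below, the native level in the same 31 cells. In the allograft order Fbn1 and Fbln2 came next after Mfap5, and their intervals overlapped. Capture can differ between genes, so these orders compare UMI levels and not protein or transcript numbers.

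The fibulins ran from lower to level. Fbln1 (ENSMUSG00000006369, chromosome 15, 85205949 to 85286535, plus strand) stood at 715 CPM (636 to 801) against 1690.4 (1665 to 1716), 2.36-fold lower (2.11 to 2.66). Fbln2 (ENSMUSG00000064080, chromosome 6, 91212455 to 91272540, plus strand) was 1000.3 against 940.3 CPM, a ratio of 1.06 (0.962 to 1.17) whose interval includes 1. Its log2 ratio took the other sign with median-of-ratios scaling (-0.08) and without its highest cell (-0.12). Fbln5 (ENSMUSG00000021186, chromosome 12, 101746565 to 101819055, minus strand), the fibulin that brings tropoelastin to microfibrils, was 88.8 against 158 CPM (1.76-fold lower, 1.29 to 2.54) and rested on 37 allograft UMIs.

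From the RefSeq promoter table, windows of 4 of the 10 genes were used. Of these windows, those that do not overlap an annotated transcript, 1 of Fbln1 and 1 of Fbln5, are shown. The levels of the genes played no part in that choice. Each runs over the 250 bases before the start site on GRCm38.p6, at chr15:85205699-85205948 on the plus strand and chr12:101819120-101819369 on the minus strand. Capitals mark matches, on either strand, to GGGCGG (GC box) or CAGACA (SMAD box).
Fbln1: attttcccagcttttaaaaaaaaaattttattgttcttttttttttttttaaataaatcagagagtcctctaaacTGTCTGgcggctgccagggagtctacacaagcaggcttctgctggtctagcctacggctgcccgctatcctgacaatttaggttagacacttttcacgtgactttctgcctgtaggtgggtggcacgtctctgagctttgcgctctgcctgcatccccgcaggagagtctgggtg
Fbln5: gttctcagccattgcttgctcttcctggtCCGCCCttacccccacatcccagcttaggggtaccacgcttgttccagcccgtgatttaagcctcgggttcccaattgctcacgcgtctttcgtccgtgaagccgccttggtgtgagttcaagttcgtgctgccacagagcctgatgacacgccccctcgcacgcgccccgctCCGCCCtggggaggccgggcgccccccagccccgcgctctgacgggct
The Fbln1 window held 1 SMAD box and no GC box, and was 46.4% G and C. The Fbln5 window held 2 GC boxes and no SMAD box, and was 65.2% G and C. Of all 32851 windows of this length 17.1% held a SMAD box and 32.7% a GC box, and the median G and C content was 52.4%. Neither window held TATAAA (12.4% of windows), TGANTCA (AP-1, 6.75%) or GGAATG (TEAD, 12.6%). A match is a description of the letters and no sign of binding.

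All 3 lysyl oxidase genes stood above their native level in fibroblast-like cells, 2 of them by 2-fold or more. Lox (ENSMUSG00000024529), the enzyme for which the family is named, was 451 CPM (389 to 520.2) in the allograft and 149 (141 to 156) in the native library, 3.04-fold higher (2.60 to 3.54). Loxl2 (ENSMUSG00000034205, chromosome 14, 69609068 to 69695834, plus strand) was 343 against 133 CPM (2.58-fold higher, 2.15 to 3.06). One allograft cell of 29792 UMIs carried 40 of the 143 Loxl2 UMIs. Without that cell, and without the highest native cell, Loxl2 was 266 against 132 CPM, a log2 ratio of 1.01 that is just past 2-fold, and by the mean of per-cell CPM it was 0.89, under 2-fold. Loxl1 (ENSMUSG00000032334, chromosome 9, 58287738 to 58313186, minus strand), the elastin-associated family member, was 509 against 378 CPM (1.35-fold higher, 1.17 to 1.55).

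Crosslinking UMIs outnumbered elastin UMIs in allograft fibroblast-like cells and not in native ones. Summed over Lox, Loxl1 and Loxl2, allograft fibroblast-like cells held 543 UMIs beside 157 of Eln, or 3.46 per Eln UMI (2.89 to 4.16). Native ones held 6708 beside 18534, or 0.362 (0.352 to 0.372). The allograft value was 9.56 times the native one (7.98 to 11.4). In the 17 allograft cells with 3 or more UMIs of the adventitial genes Pi16 and Dpp4, and fewer than 3 of Inmt and Ces1d, it was 6.10 (4.66 to 8.09), against 0.355 (0.329 to 0.382) in 133 native cells chosen alike. In the 14 allograft cells with fewer than 3 UMIs of either gene pair it was 1.69 (1.30 to 2.21), against 0.459 (0.423 to 0.498) in 192 native cells. The allograft value was thus above the native one in both choices. The 2 allograft values rested on 63 and 94 Eln UMIs. Of all 157 Eln UMIs, 5 cells held 63.1%, a spread that these intervals do not cover. Whether allograft cells differed among themselves was therefore not tested.

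**Figure D3:**
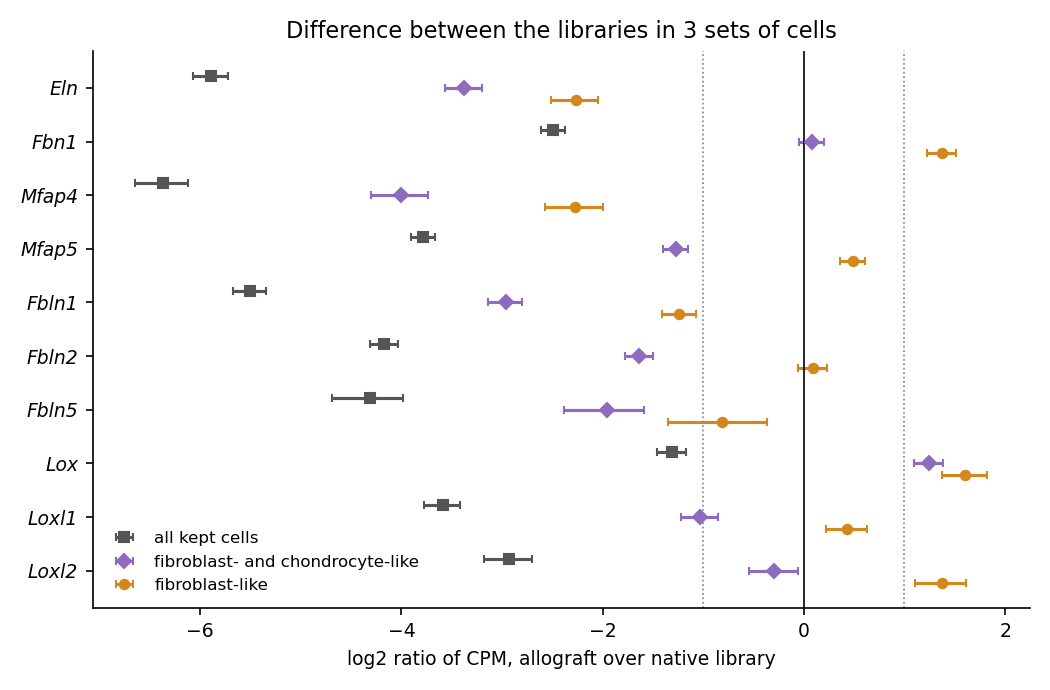
Log2 ratio of CPM, allograft over native library (x axis), for the 10 genes in all kept cells, in all mesenchymal cells and in fibroblast-like cells. Bars are exact 95% intervals of counting error and dotted lines mark 2-fold; all 10 genes lie below -1 over all cells, and Fbn1, Lox and Loxl2 lie above 1 in fibroblast-like cells.

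Single cells showed which ratios rested on many cells. Of 31 allograft fibroblast-like cells, 25 had Eln below the lower quartile of the native cells (639.9 CPM) and 4 were above the native median (1476 CPM). For Fbln1, 20 of 31 lay below the native lower quartile (913 CPM) and 6 above the median. Mfap4 was below the native lower quartile in 18 cells and above the upper one in 0. Lox lay above the native median (85.1 CPM) in 27 of 31 cells and above the upper quartile (221 CPM) in 24. Fbn1 was above the native median in 23 cells, and Loxl2 in 19. Cell values of the 2 libraries overlapped for every gene.

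The few Eln UMIs of the allograft were unevenly spread. The 5 cells with most Eln held 63.1% of its 157 UMIs, while in the native library the top 5 of 933 held 3.31% of 18534. One cell with 21 Eln UMIs grouped with native sub-cluster 3, and it had 28 UMIs of Acta2 and 10 of Myh11, genes of smooth muscle. Another cell carried 32 Eln UMIs. Leaving out the highest cell of each library gave 308 against 1810 CPM for Eln. A top cell weighs more among 31 cells than among 933, so this larger difference is no test of the result. Detection per cell was alike: the median cell had 9 of the 10 genes in either library and 5 of 10 after thinning.

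**Figure D4:**
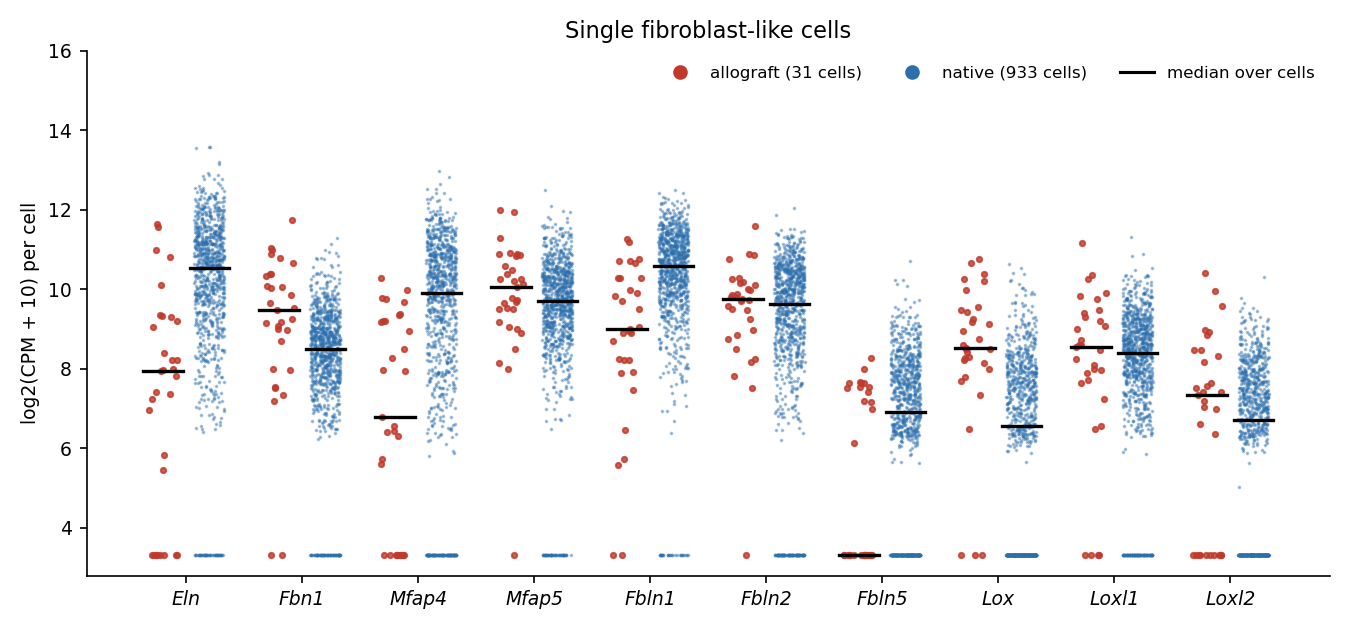
Level per cell, log2(CPM + 10) (y axis), of the 10 genes in 31 allograft and 933 native fibroblast-like cells. Points are cells, black lines medians and the lowest row cells without a UMI; most allograft cells lie below the native median for Eln, Mfap4 and Fbln1 and above it for Lox and Fbn1.

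Choices of native cells made after the clusters were seen gave much the same split. All 31 allograft cells had fewer than 3 UMIs of Inmt and Ces1d, from the list of lung-type fibroblast markers, as did 325 native cells. Against those, Eln was 377 to 1578 CPM (4.18-fold lower), Mfap4 242 to 997 (4.10-fold lower) and Fbln1 715 to 1511 (2.11-fold lower). Fbn1 was 2.57-fold, Lox 3.33-fold and Loxl2 2.60-fold higher. Among cells that also had 3 or more UMIs of Pi16 and Dpp4 (17 against 133), Eln was 244 against 1906 CPM, 7.76-fold lower. In that choice Fbln1 was 1.99-fold lower, under the 2-fold line, while Lox was 3.89-fold higher.

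Native fibroblast-like cells were not uniform in these genes. Eln ranged from 1040.2 CPM (sub-cluster 1, 256 cells) to 2593 CPM (sub-cluster 2, 148 cells) over sub-clusters 0 to 3. These sub-clusters may not be fibroblasts alone. The marker lists named sub-cluster 3 smooth muscle, with Rgs5 as its top gene, and left the other 3 unnamed. The top genes of sub-cluster 2 included the airway secretory genes Scgb3a1, Scgb1a1 and Scgb3a2. Whether other cells or free RNA gave these transcripts was not tested. Fbln2 was 429 CPM in sub-cluster 1 and between 853 and 1253 CPM in the other 3, while Fbn1 stayed between 383 and 464 CPM. Fbln5, at 154 to 165 CPM, had overlapping intervals in all 4. The 36 native cells of sub-cluster 5 had a profile of their own. The marker lists named this sub-cluster perichondrial and osteogenic. Its top genes included the tendon genes Thbs4 and Tnmd, and Ibsp of the perichondrial and osteogenic list. There Eln was 472 CPM, Fbln2 121 CPM and Lox 371 CPM, with 1.59 crosslinking UMIs per Eln UMI (1.30 to 1.94). Mfap4 was 1823 CPM in that sub-cluster, beside 246 CPM in the 30 allograft cells of sub-cluster 6. A low Eln with a high Lox was therefore also found in native cells, though with Fbn1 and Mfap4 far from the allograft levels.

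**Figure D5:**
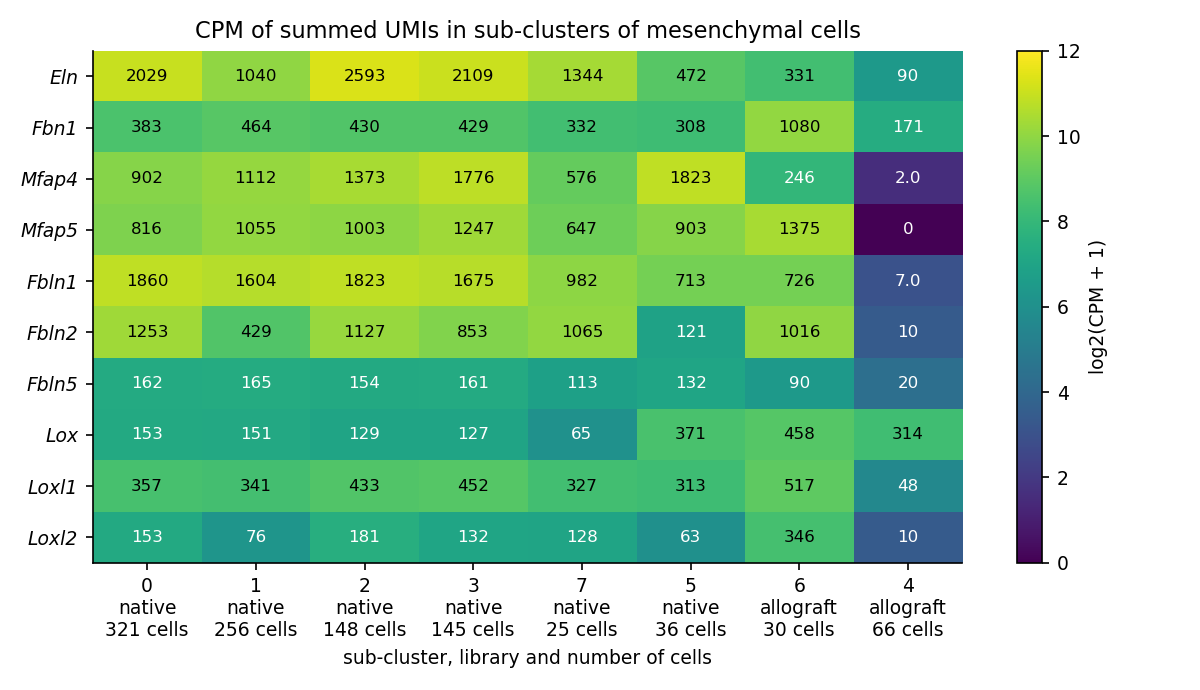
CPM of summed UMIs (numbers, and colour as log2(CPM + 1)) of the 10 genes in sub-clusters of mesenchymal cells, each column a sub-cluster with its library and number of cells. Allograft sub-cluster 6 has the highest Fbn1 (1080 CPM), Lox (458 CPM) and Loxl2 (346 CPM), and allograft sub-cluster 4, the chondrocyte-like one, has 0 Mfap5 and 314 CPM of Lox.

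Allograft chondrocyte-like cells carried a short version of the programme. Lox was the highest of the 10 in these 67 cells at 313 CPM (279.6 to 349.9) and was found in 48 cells. Fbn1 followed at 172 CPM, Eln at 89.8 CPM and Loxl1 at 48.9 CPM, and no interval of these 4 overlapped the next. Those intervals do not cover spread between cells. The top cell alone held 15.9% of the Lox, 20.9% of the Fbn1, 24.4% of the Eln and 12.2% of the Loxl1 UMIs. Eln was in 16 of the 67 cells and Loxl1 in 25, so by cells these 2 had the other order. Mfap5 had 0 UMIs, Mfap4 2 and Fbln1 7. By the limit of 3 counts, the 0 of Mfap5 allows up to 4.48% of cells with a UMI, and it does not bound the cells that express the gene. In T cells of the allograft library, Lox, Loxl1 and Eln had 0 UMIs and Fbn1 1. The 8 native chondrocyte-like cells had Lox at 390 CPM (247 to 585) and Fbn1 at 220.4 CPM (117 to 377), with 1 Eln UMI. Leukocyte transcripts were present in this allograft cluster: 35 of 67 cells had Ptprc (144 UMIs), all 10 macrophage markers were found in 20% or more of cells, and their summed level was 4850 CPM against 878 in allograft fibroblast-like cells. The part of doublets or free RNA in these values was not tested.

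Beyond these classes, 2 small native groups held members. Loxl2 was higher in the 39 cells of the Schwann and neural cluster, 331 CPM (257 to 420.5) in 21 cells, than in native fibroblast-like cells at 133 CPM (126 to 140.5). Native T cells had 0 Loxl2 UMIs. The same 39 cells had C1qa, a macrophage gene, at 1146 CPM in 9 cells, and Fbln5 at 74.1 CPM, Lox at 0 UMIs and Eln at 9.88 CPM. A group of 31 native cells with endothelial and smooth muscle genes (Pecam1 in 20 cells, Acta2 in 5) had Eln at 217 CPM (163 to 283) and Fbln2 at 100.4 CPM (65.0 to 148). Both genes are known in the walls of arteries. Native macrophage-like cells had Eln at 13.9 CPM (11.6 to 16.4) and native T cells 11.3 CPM (5.84 to 19.7). These intervals overlap, so the macrophage value is not apart from that of T cells beyond counting error. In the allograft library both were lower, at 0.892 CPM and 0 UMIs.

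Other genes of the elastic fibre system were read in the same fibroblast-like cells, by lists chosen with earlier results of these data known. Their counts stand beside the 19.4% of all genes that were higher and 11.8% that were lower in these cells, and a count near those shares is no result about a list. Of 29 other microfibril and assembly genes, 5 stood 2-fold or more below and 13 above their native level (median log2 ratio 0.79, against 0.14 for all genes). Fbn2, the fibrillin prominent in development, was 100.7 against 2.06 CPM, and Ltbp2, a fibrillin-binding protein, 264 against 11.8. Fn1, fibronectin, was 4047 against 146 CPM, beside 37.7 CPM in allograft T cells, and Adamtsl1 175 against 15.1. Over all kept cells this list went the other way, with 18 of 30 lower and 3 higher. There Ltbp4, which binds fibulins and latent TGF-beta, was 3.68 against 295 CPM (79.7-fold lower, 65.4 to 99.2), Ltbp1 51 against 2340 UMIs and Efemp1, fibulin 3, 6.43 against 202 CPM. Mmrn1, an endothelial and platelet gene of the list, had 3 UMIs against 46.

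Among 13 other crosslinking and processing genes, 5 were higher and 2 lower in allograft fibroblast-like cells (median log2 ratio 0.47), the 2 being near the share of all genes. Postn, periostin, which brings Bmp1 to lysyl oxidase, was 1809 against 34.8 CPM. Bmp1, the proteinase that activates lysyl oxidase, was 408 against 90.7 CPM, and Loxl3, another lysyl oxidase, 91.2 against 27.1. Pcolce2, a procollagen proteinase enhancer, was on the other side, at 45.6 against 319.6 CPM.

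Of 9 genes for elastin-degrading enzymes, 4 were higher and 0 lower. Mmp14, a membrane metalloproteinase, was 820.4 against 289 CPM, and Mmp12, the macrophage elastase, 55.2 against 1.28 CPM. Mmp12 stood at 9.90 CPM in T cells of the allograft library, and Ctss at 158 CPM there against 45.6 in its fibroblast-like cells. These T cells had a median of 3882 UMIs per cell and the fibroblast-like cells 12325, so free RNA need not give both the same CPM. Whether the Ctss value is above background was not tested. Ctsl, cathepsin L, lay between at 988 against 1629 CPM. The inhibitors split, with 3 of 7 higher and 2 lower: Timp1 was 995 against 172 CPM and Slpi 28.8 against 6.19 CPM, but Timp3 425 against 1897 and Cst3, cystatin C, 1269 against 3469 CPM. Slpi stood at 8.04 CPM in allograft and 14.1 CPM in native T cells, above its native fibroblast-like level. Of 8 receptor genes only Itgb3 passed 2-fold, at 38.4 against 3.74 CPM on 16 allograft UMIs, while T cells had 23.5 CPM in the allograft and 26.4 in the native library. Itga5 was 185 against 96.04 CPM, Glb1 33.6 against 24.5 and Ctsa 96.0 against 123. TGF-beta is known to raise Eln and Lox in fibroblasts. Of 9 genes of its list, 2 were higher, which is near the share of all genes, and 0 lower. The 2 were Tgfbi, at 338 against 82.9 CPM, and Tgfb2, at 247 against 69.6. Tgfb3 was 52.8 against 89.9 CPM and Smad7 283 against 186.

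Across the 20 clusters of all 3 libraries, 8 of the 10 genes were highest in the fibroblast-like cluster. With libraries pooled, Lox was highest in the chondrocyte-like cluster (318 CPM against 160.4 in fibroblast-like cells) and Loxl2 in the Schwann and neural cluster. The makeup of these clusters by library differed, so such pooled orders mix class with library. In the allograft library alone, Lox had the other order, with 451 CPM in fibroblast-like and 313 CPM in chondrocyte-like cells. In the native library it was 149 CPM and, in 8 chondrocyte-like cells, 390 CPM. Loxl2 was 343 CPM in allograft fibroblast-like cells, beside 331 CPM in the neural cluster, which held native cells only. Profiles over these 20 clusters were also compared with those of genes outside the 10. The most similar were Nbl1 for Eln (Pearson r = 0.97), Bicc1 for Fbn1 (0.99), Dpt for Mfap4 (0.98), Spon2 for Mfap5 (0.95) and Dpt for Fbln1 (0.96). They were Nbl1 for Fbln2 (0.95), Col12a1 for Fbln5 (0.97), Prelp for Lox (0.99), Ntrk2 for Loxl1 (0.98) and Rarres2 for Loxl2 (0.97). For Mfap5, Fbln1 and Fbln2 another of the 10 genes was closer than the gene named. It was Fbln1 for Mfap5 (0.959), Fbln2 for Fbln1 (0.960) and Fbln1 for Fbln2 (0.960). Prelp encodes a proteoglycan abundant in cartilage. The clusters share libraries and depth and a few clusters carry most of the signal, so these values describe likeness only.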

How the data were processed

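The deposited matrices hold raw UMI counts for each barcode, which the authors made with Cell Ranger 3.1.0 per the file headers, on mm10 per the submitters' processing notes; the annotation release is not given in the sources used here. Barcodes needed at least 500 genes and at most 20% mitochondrial UMIs, and called doublets (scrublet in scanpy 1.11.5) were removed. Counts were scaled to 10000 per cell and clustered (2000 variable genes without elastic fibre genes, 30 components, 15 neighbours, Leiden resolution 0.5, leidenalg 0.10.2) into 20 clusters, named from marker lists (3 or more markers in 20% or more of cells). UMIs were summed per class and library. Ratios had 0.5 UMI added to each sum and exact conditional binomial 95% intervals (scipy 1.17.1), CPM exact Poisson and shares Clopper-Pearson intervals; the limit beside 0 is 3 counts. Called means 2-fold among genes with 10 or more summed UMIs. The ratio was tested on simulated Poisson sums with known folds, for all kept cells and for mesenchymal cells. That simulation held no spread between cells and did not cover the fibroblast-like cells alone. Of the other pathway genes, the 4 with the largest ratio per list and comparison, with 30 or more UMIs, were eligible to be named. For profiles these were the 3 most similar genes outside the 10 with 50 CPM or more in a cluster. Values of the other pathway genes in the mixed mesenchymal set are not described. Alternatives were other filters, scalings, clusterings and choices of cells. The 10 genes and all lists were chosen with earlier results of these data known. Gene positions are from GENCODE M21.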

Additional observations from a re-analysis of the deposited data

Results flagged for a closer look

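The spleen library, which no comparison used, held a few UMIs of 3 of the 10 genes, above the 3 counts that a library at 0 allows. Loxl2 had 21 UMIs in 13 of 4559 cells (0.756 CPM), of which 4 positive cells were in plasma cell cluster 12 and 10 UMIs in 2 of the 6 spleen cells of the macrophage-like clusters. Lox had 5 UMIs in 4 cells and Fbln1 4 UMIs in 4 cells. The other 7 genes had 0 to 2 UMIs.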

How the results depend on the processing

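No paired analysis was possible because each source is 1 pooled matrix whose cells carry no sample, and for the same reason no replicate could be left out. Over all kept cells, 10 of 10 genes were lower under each of 6 alternatives. Among mesenchymal cells the count apart was 6 to 8 under 11 alternatives and among fibroblast-like cells 5 or 6 under 13, those for fibroblast-like cells chosen after seeing the data. No called ratio changed direction. In fibroblast-like cells the Loxl2 log2 ratio was under 1 with the mean of per-cell CPM (0.89) and 1.01 without the highest cell, and Fbln1 was -0.99 in Pi16 or Dpp4 cells. Fbln2 was -0.08 with median-of-ratios scaling and -0.12 without its highest cell. Crosslinking UMIs per Eln UMI were 6.10 for the 17 allograft Pi16 or Dpp4 cells, and for native cells 0.350 without small sub-clusters and 0.397 without Inmt or Ces1d. The median share of mesenchymal cells with a UMI of a member was 35.7% in the allograft and 88.3% in the native library, and 19.1% and 52.9% after thinning each cell to 1500 UMIs. These cells were 67 of 98 chondrocyte-like in the allograft and 8 of 941 in the native library, so this gap mixes makeup with level. The median fibroblast-like cell had 9 of the 10 genes in either library. With 31 allograft cells, 1 cell can hold 28.0% of a gene's UMIs, and the intervals do not cover that.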
